A study of Parascaris univalens with 7 samples.

Results

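DNA replication genes of the horse roundworm Parascaris univalens were taken by name: a gene was included when its annotation held words for a DNA polymerase, primase, origin recognition complex, MCM2 to MCM7, GINS, replication factor A or C, replication protein A, proliferating cell nuclear antigen, DNA ligase, ribonucleoside-diphosphate reductase or DNA replication. The rule found 63 of the 15027 genes in the deposited table, where each gene stands for its transcript with the highest mean level. The choice used names only and no measured level decides whether a gene is in, although the level decides which transcript's name is read. The 63 genes carry 43 distinct names, and 16 of these names stand on more than 1 gene, covering 36 genes.

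The worms were adults of a North American wild-type strain taken from horse intestine, with no genotype difference or treatment between groups. The groups were testis (labelled male germline), embryo, ovary (labelled female germline), intestine and carcass, with 1 RNA library of each; embryo, intestine and carcass are all labelled male somatic, the embryos were kept at 4 °C, and no ages are stated. A further 2 libraries, made from mixed samples, mark the 5′ ends of transcripts and have no level in the table. This nematode goes through programmed DNA elimination: germ cells pass on the complete genome, but somatic precursors lose part of their DNA during early cleavage, so intestine and carcass carry the reduced genome. Whether the stages before and after that loss were both in the embryo sample is not stated in the labels.

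Replication starts where the origin recognition complex and the loading factor Cdt1 place the ring-shaped MCM helicase on DNA, which GINS then helps to activate. DNA polymerase alpha with its primase lays down short starts, polymerases delta and epsilon extend them on the sliding clamp PCNA, which replication factor C loads, replication protein A covers the single strands, and DNA ligase closes the nicks. Ribonucleotide reductase makes the deoxynucleotides. In nematodes such as Caenorhabditis elegans most cells of the adult body no longer divide, the gonads hold dividing germ cells, and the embryo divides rapidly with RNA that the mother placed in the egg.

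Levels are RPKM, the reads of a transcript corrected for its length in kilobases and for the library's total. With 1 library per tissue there is no spread between animals, so no test between tissues was made, and intervals given below are exact 95% Poisson intervals of the reads behind a value, which cover counting error only. Reads behind the values, recovered from the steps in which they rise, came to 31650000 in testis, 11900000 in embryo, 31850000 in ovary, 18550000 in intestine and 27600000 in carcass. At the median transcript length 3 reads are worth 0.0715 RPKM in testis, 0.19 in embryo, 0.0711 in ovary, 0.122 in intestine and 0.082 in carcass. Within a whole tissue, fewer cells of a type and less RNA per cell cannot be told apart. The labels were checked against marker lists: the 35 testis markers, major sperm proteins and proteins with their domain, summed to 24800 RPKM in testis and to between 32.6 in ovary and 596 in intestine elsewhere. The 23 ovary markers summed to 38000 RPKM in ovary, 2900 in embryo and 118 to 233 in the other tissues. The 232 carcass markers of cuticle and muscle summed to 63400 RPKM in carcass and at most 4610 elsewhere, while the 50 intestine markers summed to 7210 in intestine and at most 1990, in carcass, elsewhere.

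Across the 63 genes the ovary stood highest and the embryo next, testis was lower, and intestine and carcass were lowest. The median level was 6.7 RPKM in testis (quartiles 3.3 and 14.3), 14.5 in embryo (9.2 and 34.5), 20.8 in ovary (12.2 and 40.9), 3.9 in intestine (1.7 and 6.95) and 1.6 in carcass (0.7 and 3.3). At least 1 RPKM was reached by 59 genes in testis, 60 in embryo, all 63 in ovary, 51 in intestine and 43 in carcass. At 5 RPKM or more the counts were 40 in testis, 59 in embryo, 58 in ovary, 25 in intestine and 11 in carcass. Together the 63 genes took 0.136% of the reads in testis, 0.273% in embryo, 0.391% in ovary, 0.0715% in intestine and 0.0338% in carcass.

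**Figure D1:**
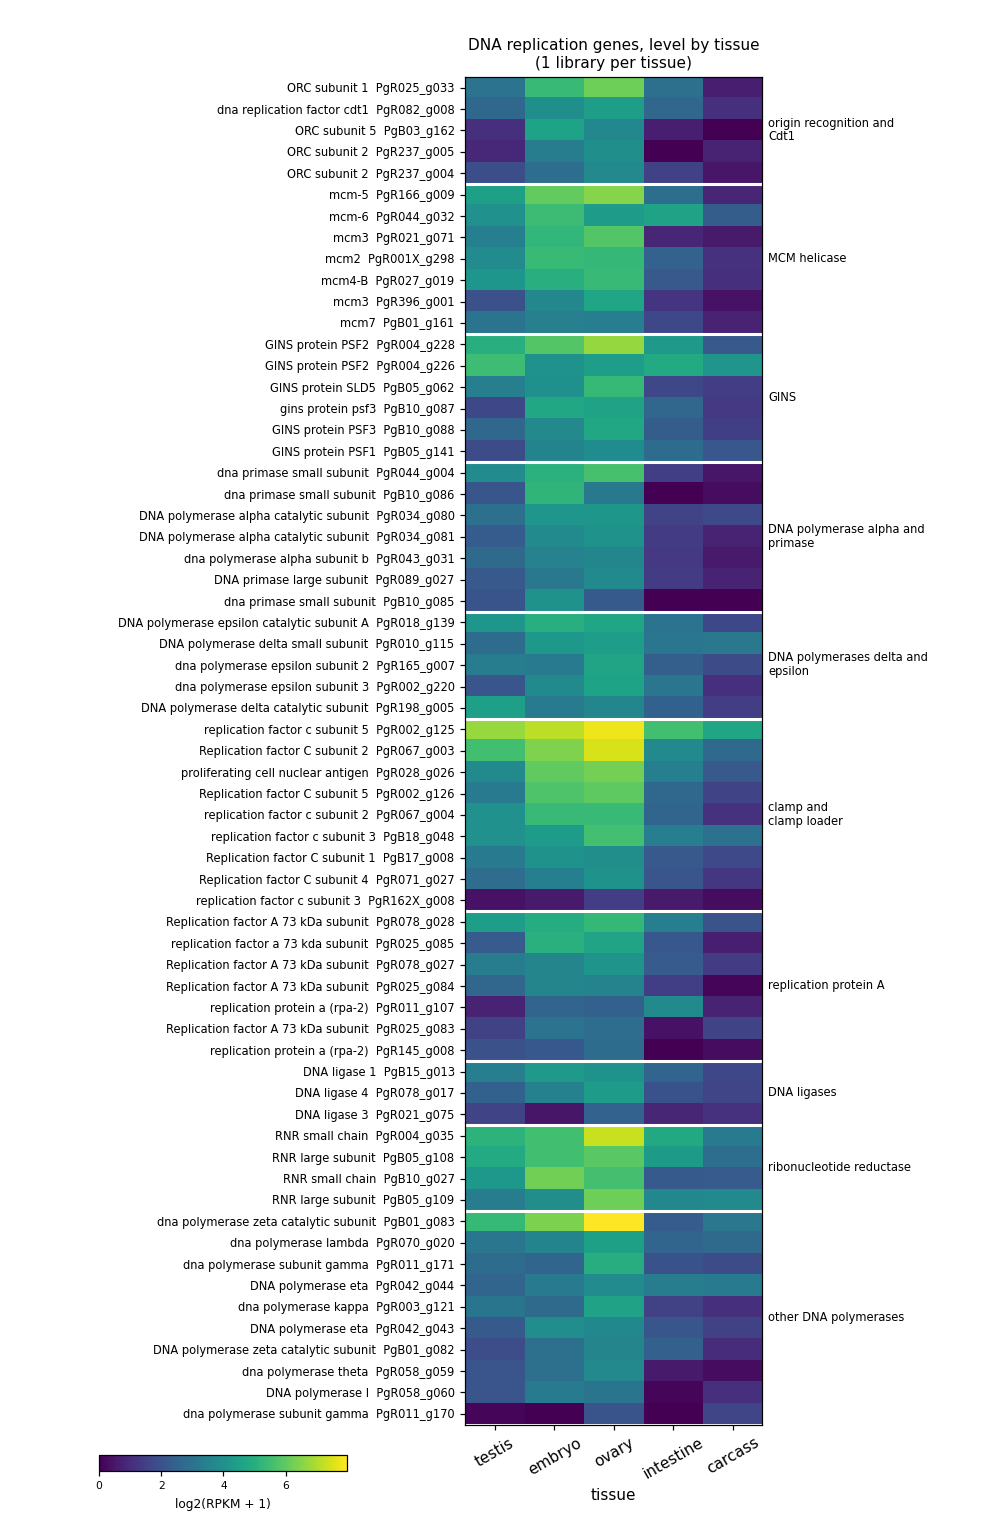
Level of each of the 63 DNA replication genes (rows, grouped by role; RNR, ribonucleoside-diphosphate reductase) in the 5 tissues (columns), as log2(RPKM + 1) on the colour scale, 1 library per tissue. Ovary and embryo columns are bright through most roles, carcass is dark, and the rows that depart from this include PgR004_g226, PgR198_g005 and PgR011_g107.

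Ovary held the highest level of 44 of the 63 genes, 69.8%, against 37.2% of the 14038 genes that reached 1 RPKM in any tissue. Testis held the highest level of 2, embryo of 16, intestine of 1 and carcass of 0. Carcass held the lowest level of 45. In 52 of the 63 genes both ovary and embryo lay above testis, intestine and carcass, an order found in 34.8% of all genes at 1 RPKM or more. These counts move with the scaling of the libraries. With median-of-ratios scaling testis held the highest level of 8 genes, embryo of 22, ovary of 29, intestine of 1 and carcass of 3. With upper-quartile scaling the counts were 2 in testis, 23 in embryo, 34 in ovary, 1 in intestine and 3 in carcass. Embryo held 8 and ovary 52 with TPM, embryo 27 and ovary 33 when the 20 highest genes of a tissue are left out, and embryo 28 and ovary 32 without the rDNA-related genes, so ovary held the most in each of these settings. Ranks within a tissue do not depend on the scaling between libraries. The median percentile rank of the 63 genes among all genes was 59.1 in testis, 69.8 in embryo, 72.8 in ovary, 56.5 in intestine and 44.0 in carcass.

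**Figure D2:**
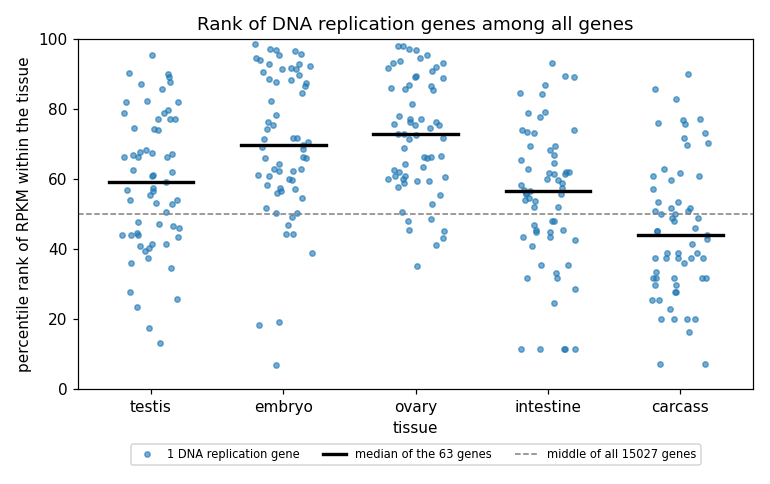
Percentile rank of each of the 63 genes (points) among all 15027 genes of the same tissue, with the median as a black bar and the middle of all genes as a dashed line. The medians are 59.1 in testis, 69.8 in embryo, 72.8 in ovary, 56.5 in intestine and 44.0 in carcass, so carcass alone has its median below the middle of all genes.

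The tissues were compared by differences in log2(RPKM + 1). The threshold for calling a gene higher or lower was a difference of 2, which is 4-fold, and the higher of the levels had to reach 5 RPKM. Shares of the replication genes are of all 63, or of all genes of a role, also where they stand beside a share of genes that reached 5 RPKM. Against both adult somatic tissues, taken as the higher of intestine and carcass, 37 of the 63 genes were called higher in ovary (58.7%, against 16.0% of all genes and 24.6% of those that reached 5 RPKM) and 0 lower. In embryo 26 were called higher (41.3%, against 12.4% and 18.8%) and 0 lower. In testis 4 were called higher (6.35%, against 14.3% and 22.3%) and 0 lower, and 44 of the 63 reached 5 RPKM in testis or a somatic tissue. The median difference from the adult somatic tissues was 0.76 in testis (all genes -0.10), 1.74 in embryo (all genes 0.44) and 2.26 in ovary (all genes 0.67). Testis lay above both somatic tissues in 51 of the 63 genes, so most testis levels were above the somatic ones by less than the threshold. Among all genes that reached 1 RPKM in a compared tissue 47.7% lay so. With the lower of the gonads set against the higher of the somatic tissues, 3 genes were called higher in the gonads (4.76%, against 3.36% of all genes and 4.49% of those that reached 5 RPKM), a share near the background. These 3 are PgR021_g071 (mcm3), PgR044_g004 (primase small subunit) and PgB01_g083 (polymerase zeta), and with the polymerase delta catalytic subunit PgR198_g005 they are the 4 called higher in testis.

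Testis against ovary, 17 of the 63 genes were called lower in testis (27.0%, against 15.9% of all genes) and 0 higher (11.6% of all genes). Among genes that reached 5 RPKM in either gonad the share of all genes called lower in testis was 23.9%, close to that of the replication genes. The median difference was -1.53 for the replication genes and -0.89 for all genes. Ovary exceeded testis in 61 of 63, and in 67.8% of all genes that reached 1 RPKM in either gonad. That count of 17 depends on how the libraries are scaled. With median-of-ratios scaling it was 2 (3.17%, against 5.58% of all genes), and the median was -0.50 for the replication genes and 0.13 for all genes. With upper-quartile scaling it was 5 (7.94%, against 7.57%), and the medians were -0.86 and -0.25. Against the somatic tissues the counts were also smaller with median-of-ratios scaling, 12 higher in embryo (19.0%, against 6.23% of all genes) and 13 higher in ovary (20.6%, against 6.12%).

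Embryo against ovary, 0 genes were called higher in embryo (5.33% of all genes) and 2 lower (3.17%, against 4.45% of all genes and 7.08% of those that reached 5 RPKM). The median difference was -0.48 for the replication genes and -0.22 for all genes. In embryo 17 of 63 were higher, against 42.4% of all genes that reached 1 RPKM in embryo or ovary. Intestine against carcass, 6 were called higher in intestine (9.52%, against 4.95% of all genes and 10.6% of those that reached 5 RPKM) and 0 lower (7.18% of all genes). The median difference was 0.74 for the replication genes and 0.59 for all genes. Intestine exceeded carcass in 49 of 63 genes and was below it in 13, while 67.5% of all genes at 1 RPKM or more were higher in intestine. Only 26 of the 63 reached 5 RPKM in intestine or carcass, so the 9.52% is to be read against the 4.95% and not the 10.6%. The 6 called genes are ORC1 PgR025_g033, mcm-5 PgR166_g009, mcm-6 PgR044_g032, PSF2 PgR004_g228, polymerase epsilon subunit 3 PgR002_g220 and rpa-2 PgR011_g107. PgR002_g220 overlaps PgR002_g221 of the opposite strand over 1869 bases, and PgR002_g221 had 163.4 RPKM in intestine and 99.3 in carcass. When each gene stands for its longest transcript the count was 4 (6.35%, against 4.25% of all genes). With median-of-ratios scaling, and with upper-quartile scaling, the count was 2 (3.17%, against 1.48% and 2.70% of all genes). Expressed against ovary, the median gene stood at 30.6% of its ovary level in testis, 69.8% in embryo, 15.2% in intestine and 6.98% in carcass. For comparison, the summed ovary markers stood at 0.415% of their ovary level in intestine and 0.311% in carcass, and the summed testis markers at 2.4% of their testis level in intestine and 1.15% in carcass.

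**Figure D3:**
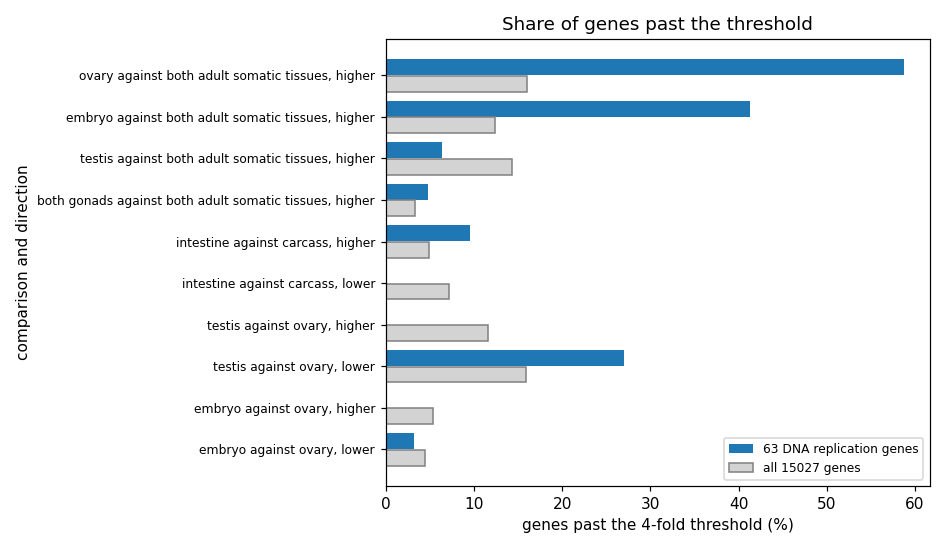
Share of the 63 DNA replication genes (blue) and of all 15027 genes (grey) past the 4-fold threshold in each comparison and direction, in percent of genes; testis, embryo and ovary are each set against both adult somatic tissues. The 2 widest gaps are ovary over soma, 58.7% against 16.0%, and embryo over soma, 41.3% against 12.4%, while testis over soma is 6.35% against 14.3%.

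By role, counts are small and are read against the shares of all genes called: 12.4% higher in embryo and 16.0% higher in ovary than in both somatic tissues (18.8% and 24.6% of genes that reached 5 RPKM), and 15.9% lower in testis than in ovary (23.9%). Of the 5 origin recognition and loading genes, 3 were called lower in testis than in ovary (60%), with a median difference of -2.63, and 3 were called higher in embryo (60%) and 4 in ovary (80%) than in both somatic tissues. ORC1, the largest subunit of the origin recognition complex (PgR025_g033, scaffold PgR025 from 567842 to 574886, minus strand), stood at 7.2 RPKM in testis, 40.8 in embryo, 72.4 in ovary, 6.7 in intestine and 0.6 in carcass. Its counting intervals were 6.37 to 8.11 in testis and 5.67 to 7.87 in intestine, which overlap, and 69.7 to 75.2 in ovary. The difference of -3.16 between testis and ovary was the most negative among the 63 genes, and that of 2.27 between intestine and carcass was past the threshold as well. ORC5, a subunit that binds ATP (PgB03_g162), had 1.1 RPKM in testis, 23.5 in embryo, 12 in ovary and 0.6 in intestine, and was listed at 0 in carcass, where 3 reads would be 0.0754 RPKM. This is the only gene of the role that was highest in embryo. ORC2, another subunit of the same complex, stands on neighbouring gene models of 1 strand separated by 293 bases: PgR237_g004 had 2.8 RPKM in testis, 6.3 in embryo, 12.5 in ovary, 1.9 in intestine and 0.4 in carcass. PgR237_g005 had 0.9 in testis, 9.4 in embryo, 14.7 in ovary, 0 in intestine and 0.7 in carcass. Ovary was highest in both models. Cdt1, which brings MCM to the origin (PgR082_g008), had 5.4 RPKM in testis, 14.5 in embryo, 20.8 in ovary, 5.2 in intestine and 1.1 in carcass.

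The MCM helicase is a ring of 6 different proteins, MCM2 to MCM7, that opens the double helix ahead of the fork. The role has 7 genes, since mcm3 stands on 2, and 5 were called higher in embryo and 5 in ovary than in both somatic tissues (71.4% each), and 3 lower in testis than in ovary (42.9%). mcm-5 (PgR166_g009) was highest among them in ovary, with 21.8 RPKM in testis, 65.4 in embryo, 90.2 in ovary, 6.3 in intestine and 0.8 in carcass. Its difference of -2 between testis and ovary lies at the threshold itself. mcm3 (PgR021_g071) had 9.9 RPKM in testis, 37.5 in embryo, 55.3 in ovary, 0.8 in intestine and 0.5 in carcass, and both gonads exceeded both somatic tissues by 2.60. The second mcm3 model, PgR396_g001 of 639 bases, followed the same order from ovary to carcass, with 2.9 RPKM in testis, 11.9 in embryo, 24.9 in ovary, 1.3 in intestine and 0.3 in carcass. mcm2 (PgR001X_g298) had 13.3 RPKM in testis, 40.6 in embryo, 38 in ovary, 4.7 in intestine and 1.2 in carcass. mcm4 (PgR027_g019) had 17.0 in testis, 30.9 in embryo, 40.7 in ovary, 3.7 in intestine and 1.1 in carcass. Embryo and ovary were within a narrow range of each other in mcm2 and mcm7. mcm7 (PgB01_g161) was, with PgR021_g071 standing for mcm3, the lowest subunit in testis, embryo and ovary, with 7.3, 10 and 9.6 RPKM there, against 2.3 in intestine and 0.7 in carcass.

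mcm-6 (PgR044_g032, scaffold PgR044 from 566915 to 611282, plus strand) departed from the other subunits. It had 15.3 RPKM in testis, 43.0 in embryo, 19.9 in ovary, 22.8 in intestine and 4.1 in carcass. Its intestine level (interval 21.5 to 24.2) was above its ovary level (18.9 to 20.9), and intestine exceeded carcass past the threshold. The other 5 subunits, with PgR021_g071 standing for mcm3, lay between 0.8 and 6.3 RPKM in intestine and between 0.5 and 1.2 in carcass. The ratio of the highest to the lowest of the 6 subunits was 2.99 in testis, 6.54 in embryo, 9.4 in ovary, 28.5 in intestine and 8.2 in carcass. Without mcm-6 the ratio was 7.87 in intestine and 2.4 in carcass, and those of testis, embryo and ovary stayed as given. The places of intestine and carcass in the order by evenness therefore rest on that 1 gene, while the order of testis, embryo and ovary does not.

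**Figure D4:**
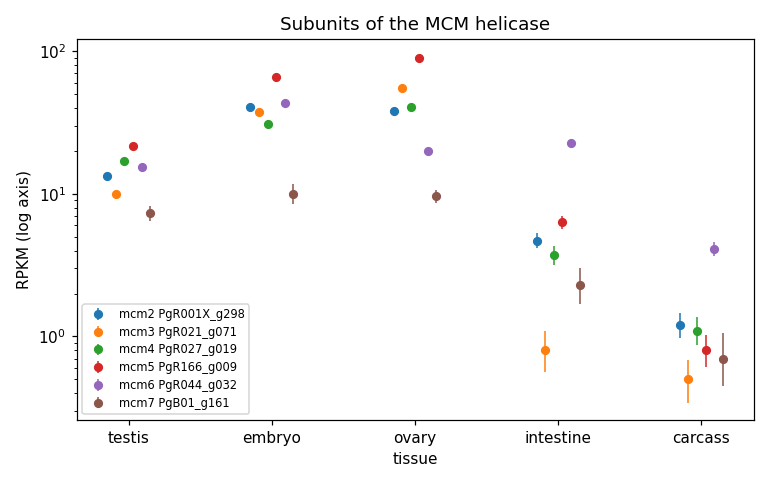
Level of the 6 MCM subunits in each tissue in RPKM on a log axis, 1 library per tissue, with bars for the exact 95% counting interval where it is wider than the point. In intestine mcm6 stands at 22.8 RPKM while the other 5 lie between 0.8 and 6.3, and in testis all 6 lie between 7.3 and 21.8.

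GINS is a ring of 4 small proteins, SLD5, PSF1, PSF2 and PSF3, that joins the MCM ring when an origin fires. Of its 6 genes, 3 were called lower in testis than in ovary (50%), with a median difference of -1.97, and 2 were called higher in embryo (33.3%) and 3 in ovary (50%) than in both somatic tissues. The PSF3 models PgB10_g087 and PgB10_g088 and PSF1 PgB05_g141 are those called lower in testis than in ovary. PSF3 PgB10_g087 had 2.3 RPKM in testis, 26.4 in embryo, 23.0 in ovary, 5.2 in intestine and 1.5 in carcass. PgB10_g088 had 5.4 in testis, 12.5 in embryo, 25.8 in ovary, 4.1 in intestine and 1.8 in carcass. PSF1 had 2.6 in testis, 11.0 in embryo, 13.7 in ovary, 6.0 in intestine and 3.5 in carcass, so that testis was below both somatic tissues for PSF1. SLD5 (PgB05_g062) had 9.6 RPKM in testis, 14.9 in embryo, 38.9 in ovary, 2.3 in intestine and 1.7 in carcass. The PSF2 models went in different directions. PgR004_g228 had 31.4 RPKM in testis, 56.0 in embryo, 102.4 in ovary, 18.4 in intestine and 3.7 in carcass. PgR004_g226 was highest in testis, with 44.0 RPKM there, 15.7 in embryo, 20.7 in ovary, 28.1 in intestine and 16.7 in carcass, and its difference of 1.05 between testis and ovary was the most positive of the 63 genes. Both models lie inside much longer gene models annotated as hypothetical, and how reads were shared between overlapping models is not given in the sources used here.

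Of the 7 genes of DNA polymerase alpha with primase, 6 were called higher in embryo and 6 in ovary than in both somatic tissues (85.7% each), and 0 were called lower in testis than in ovary. Primase small subunit, the enzyme that makes the RNA start (PgR044_g004), had 13.4 RPKM in testis, 33.2 in embryo, 48.9 in ovary, 1.8 in intestine and 0.4 in carcass. Both gonads exceeded both somatic tissues by 2.36. A second gene of that name, PgB10_g086, was highest in embryo, with 3.4 RPKM in testis, 35.8 in embryo (interval 33.8 to 37.8), 8.4 in ovary (7.83 to 9.01) and 0.2 in carcass, and it was listed at 0 in intestine. Its difference of 1.97 between embryo and ovary was the most positive of the 63 genes and just under the threshold. PgB10_g085 carries the same name, lies inside PgB10_g086 on the opposite strand, and had 3.2 RPKM in testis, 15.5 in embryo and 3.8 in ovary, with 0 listed in intestine and carcass. Their reads may be those of 1 locus, since it is not stated whether reads kept their strand. The primase large subunit PgR089_g027 had 3.7 RPKM in testis, 8.1 in embryo, 12.6 in ovary, 1.6 in intestine and 0.7 in carcass. The polymerase alpha catalytic subunit stands on PgR034_g080 and PgR034_g081. PgR034_g080 had 6.7 RPKM in testis, 17.2 in embryo, 17.7 in ovary, 2.1 in intestine and 2.4 in carcass. PgR034_g081 had 4.0 in testis, 12.7 in embryo, 16.0 in ovary, 1.6 in intestine and 0.7 in carcass. Testis lay between soma and the other tissues in both. Subunit B of polymerase alpha, PgR043_g031, had 5.7 RPKM in testis, 10.5 in embryo, 11.7 in ovary, 1.5 in intestine and 0.5 in carcass.

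DNA polymerases delta and epsilon copy the bulk of both strands. Of their 5 genes, 0 were called higher in embryo and 1 in ovary (20%) than in both somatic tissues, and 1 lower in testis than in ovary (20%), shares near or below those of all genes. Their median difference from the somatic tissues was 0.90 in embryo and 1.49 in ovary. The polymerase delta catalytic subunit (PgR198_g005) was highest in testis, with 21.4 RPKM there (interval 20.6 to 22.2), 8.6 in embryo, 11.7 in ovary (11.1 to 12.3), 4.6 in intestine and 1.7 in carcass. It is 1 of the 2 genes above their ovary level in testis, and its excess over both somatic tissues lies at the threshold of 2. Its small subunit PgR010_g115 had another order, with 6.0 RPKM in testis, 17.9 in embryo, 20.9 in ovary, 7.7 in intestine and 8.1 in carcass, so that testis was lowest. Polymerase epsilon's catalytic subunit is read here on a transcript of 777 bases, which was highest in embryo. Each longer transcript of the gene, from 7817 to 8397 bases, was highest in ovary. The longest had 20.4 RPKM in ovary against 18.4 in embryo, so the highest tissue depends on the transcript. The polymerase epsilon catalytic subunit PgR018_g139 had 17.0 RPKM in testis, 31.4 in embryo, 24.9 in ovary, 7.2 in intestine and 2.3 in carcass. Its subunit 2, PgR165_g007, had 9.1 in testis, 8.9 in embryo, 23.8 in ovary, 4.3 in intestine and 2.6 in carcass. Subunit 3, PgR002_g220, was the gene of this role called lower in testis than in ovary, with 3.3 RPKM in testis, 12.6 in embryo, 23.4 in ovary, 7.7 in intestine and 1.1 in carcass.

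Of the 9 genes of the sliding clamp and its loader, 4 were called higher in embryo (44.4%) and 6 in ovary (66.7%) than in both somatic tissues, and 2 lower in testis than in ovary (22.2%, near the share of all genes). PCNA (PgR028_g026, scaffold PgR028 from 508569 to 515515, plus strand), the ring that tethers the polymerases, had 13.1 RPKM in testis, 63.4 in embryo, 77.2 in ovary, 9.9 in intestine and 3.7 in carcass. It was called lower in testis than in ovary and higher in embryo and in ovary than in both somatic tissues. Replication factor C subunit 5 (PgR002_g125) had the highest testis, embryo, intestine and carcass levels of the 63 genes, with 105.6 RPKM in testis, 143.6 in embryo, 215.9 in ovary, 45.8 in intestine and 25.4 in carcass. The neighbouring PgR002_g126 of that name had 9.0 in testis, 53.1 in embryo, 62.5 in ovary, 5.4 in intestine and 2.1 in carcass, and some of its transcripts are annotated as nucleolar protein 9. Subunit 2 (PgR067_g003) had 46.0 RPKM in testis, 85.4 in embryo, 176.3 in ovary, 12.8 in intestine and 5.7 in carcass. PgR067_g004, which lies inside it on the opposite strand and has the same name, had 15.4 in testis, 41.0 in embryo, 41.1 in ovary, 5.1 in intestine and 1.2 in carcass. Ovary was the highest tissue in 8 of the 9 genes. Subunit 1, the large subunit of the loader (PgB17_g008), is the exception, with 9.0 RPKM in testis, 15.7 in embryo, 14.2 in ovary, 3.7 in intestine and 2.4 in carcass. Some transcripts of PgB17_g008 are annotated as a SUMO-activating enzyme subunit, and the transcript used here overlaps them. Its transcripts of 3205 bases, which do not reach them, had 11.7 RPKM in embryo and 13.4 in ovary, so the exception depends on the transcript. Subunit 3 on PgB18_g048 had 15.2 in testis, 20 in embryo, 47.3 in ovary, 9.5 in intestine and 6.8 in carcass, while PgR162X_g008 of that name stayed at or below 1.7 RPKM in each tissue. Subunit 4 (PgR071_g027) had 6.2 in testis, 9.9 in embryo, 15.9 in ovary, 3.3 in intestine and 1.4 in carcass.

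Replication protein A, the trimer that coats single-stranded DNA, stands on 7 genes, 5 of them with the name of the large subunit (73 kDa). Of these 7 genes, 2 were called higher in embryo (28.6%) and 3 in ovary (42.9%) than in both somatic tissues, and 1 lower in testis than in ovary (14.3%). PgR078_g028 was the highest, with 21.1 RPKM in testis, 29.6 in embryo, 38.2 in ovary, 9.8 in intestine and 3.1 in carcass, and PgR078_g027 had 9.4 in testis, 11.3 in embryo, 16.2 in ovary, 3.9 in intestine and 1.6 in carcass. The order of the tissues was the same in both. PgR025_g085, the gene of the role called lower in testis than in ovary, had 3.9 RPKM in testis, 32.5 in embryo, 24.0 in ovary, 3.5 in intestine and 0.6 in carcass. Its neighbours PgR025_g084 and PgR025_g083, of the same name, were likewise highest in embryo, with 11.3 and 7.1 RPKM there. PgR025_g084 had 5.2 RPKM in testis, 11.3 in embryo, 10.9 in ovary, 1.8 in intestine and 0.1 in carcass. The rpa-2 gene PgR011_g107 was the only replication gene highest in intestine, with 0.7 RPKM in testis, 5.0 in embryo, 4.6 in ovary, 13.0 in intestine and 0.7 in carcass. That value belongs to a transcript of 320 bases and rests on 77 reads in intestine (interval 10.2 to 16.2 RPKM). The gene's longer transcript, 955 bases, had 0.9 RPKM in testis, 8.6 in embryo, 4.3 in ovary, 4.4 in intestine and 0.3 in carcass, and was highest in embryo. The other rpa-2 gene, PgR145_g008, had 2.9 RPKM in testis, 3.6 in embryo, 6.0 in ovary, 0 in intestine and 0.2 in carcass.

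DNA ligases join the ends that replication or repair leaves. Ligase 1, the replicative ligase (PgB15_g013), had 9.5 RPKM in testis, 18.7 in embryo, 16.0 in ovary, 5.0 in intestine and 2.3 in carcass. Ligase 4, known for the joining of double-strand breaks (PgR078_g017), had 4.6 in testis, 10.4 in embryo, 19.8 in ovary, 3.0 in intestine and 2.2 in carcass. Ligase 3 (PgR021_g075) was low throughout and lowest in embryo, with 2.1 in testis, 0.4 in embryo, 4.7 in ovary, 0.8 in intestine and 1.2 in carcass. Of the 3 ligases only ligase 4 was called higher in ovary than in both somatic tissues.

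Ribonucleotide reductase joins large subunits, which hold the active site, and small subunits, which supply its radical. Of its 4 genes, 1 was called higher in embryo (25%) and 3 in ovary (75%) than in both somatic tissues, and 2 lower in testis than in ovary (50%). The small chain PgR004_g035 had 34.3 RPKM in testis, 45.6 in embryo, 154.1 in ovary, 27.5 in intestine and 8.5 in carcass. A second small chain gene, PgB10_g027, had 18.1 in testis, 75.7 in embryo, 48.2 in ovary, 3.8 in intestine and 3.9 in carcass. PgR004_g035 was thus highest in ovary and PgB10_g027 in embryo. The large subunit stands on neighbouring models: PgB05_g108 had 27.9 RPKM in testis, 45.5 in embryo, 59.9 in ovary, 19.0 in intestine and 6.3 in carcass. PgB05_g109 had 9.3 in testis, 14.2 in embryo, 73.1 in ovary, 12.1 in intestine and 13.0 in carcass. PgB05_g109 was lower in embryo than in ovary by a difference of -2.29 and is 1 of the 2 genes called so.

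The other DNA polymerases, of repair, damage bypass and mitochondria, comprise 10 genes, of which 3 were called higher in embryo (30%) and 5 in ovary (50%) than in both somatic tissues, and 2 lower in testis than in ovary (20%). Polymerase zeta, a bypass polymerase, stands on 2 models with unlike levels. PgB01_g083 (940 bases, 4 exons, minus strand) had the highest level of the 63 genes in ovary, with 39.3 RPKM in testis, 82.7 in embryo, 247.7 in ovary, 4.0 in intestine and 8.0 in carcass. PgB01_g082 (4913 bases, 34 exons, plus strand), 1332 bases away, had 2.7 in testis, 6.7 in embryo, 11.4 in ovary, 4.4 in intestine and 1.0 in carcass. Their ratio was 21.7 in ovary, so the shorter model's level is not that of the longer one. Polymerase gamma, which copies mitochondrial DNA (PgR011_g171), had 6.1 RPKM in testis, 5.0 in embryo, 30.1 in ovary, 3.0 in intestine and 2.6 in carcass. It was called lower in testis and in embryo than in ovary, with a difference of -2.37 for embryo. Polymerase kappa, another bypass enzyme (PgR003_g121), had 7.6 in testis, 5.7 in embryo, 23.0 in ovary, 1.9 in intestine and 1.1 in carcass. Ovary stood above each other tissue in both. Polymerase lambda, a repair enzyme that fills short gaps (PgR070_g020), had 7.8 RPKM in testis, 11.0 in embryo, 22.2 in ovary, 5.0 in intestine and 5.8 in carcass. Polymerase eta, which copies past damage from ultraviolet light (PgR042_g044), had 5.1 in testis, 8.7 in embryo, 13.3 in ovary, 9.4 in intestine and 8.7 in carcass, so that testis was the lowest tissue. The second eta model, PgR042_g043 on the same strand, had 3.8 in testis, 13.9 in embryo, 12.1 in ovary, 3.4 in intestine and 2.0 in carcass, and was highest in embryo and lowest in carcass.

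**Figure D5:**
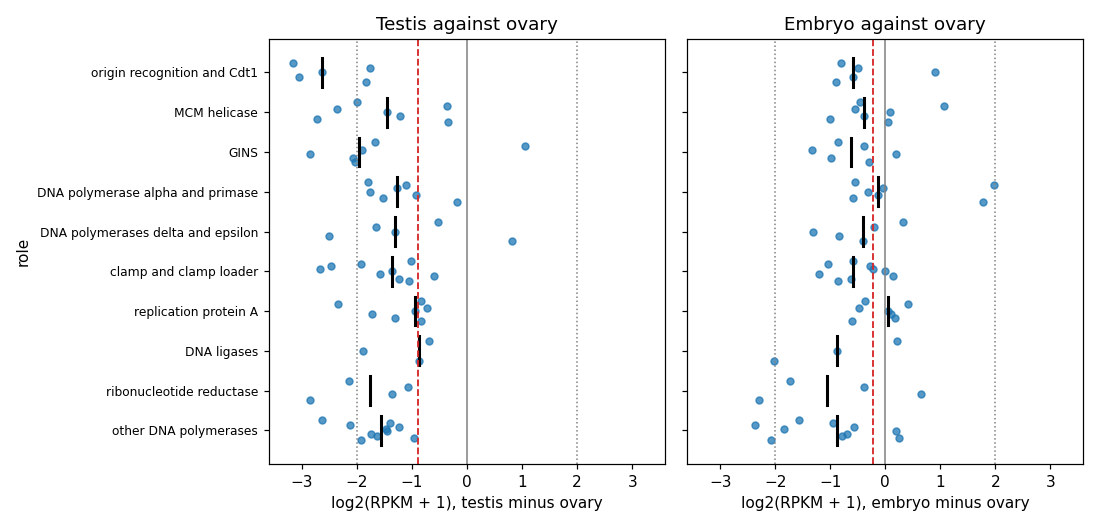
Difference in log2(RPKM + 1) of each of the 63 genes (points), testis minus ovary on the left and embryo minus ovary on the right, by role; black bars are the medians of the roles, the red dashed line is the median of all genes (-0.89 and -0.22), and dotted lines mark the 4-fold threshold. On the left 61 of 63 points lie below 0 and the median of the origin recognition genes is -2.63; on the right the points spread on both sides of 0.

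None of the 63 genes (0) was marked as lying in eliminated DNA, a mark that 6.55% of all genes carry. The mark of the spliced leader library, which captures transcripts that begin with the short leader added by trans-splicing, was on 36 of the 63 genes (57.1%), against 36.1% of all genes and 41.5% of genes with a mean of at least 1 RPKM. The mark of the cap-based TeloPrime library was on 8 (12.7%, against 15.9% of all genes), and 23 genes had neither mark. The representing transcripts were longer than those of all genes, with a median of 1765 bases (320 to 4913) against 1325, and held more exons, with a median of 9 against 6. Of the 63 genes 37 have several transcripts. Only 2 lie on scaffolds whose name ends in X (3.17%, against 19.0% of all genes); the meaning of that letter is not given in the sources used here.

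Genes that work beside the replication machinery were taken from lists of annotation words, and their counts are read against the same shares of all genes. Of 6 genes for origin firing and the fork, 1 was called higher in embryo (16.7%) and 3 in ovary (50%) than in both somatic tissues. MCM10, a fork protein that binds the MCM ring (PgR041_g063), had 25.5 RPKM in testis, 18.9 in embryo, 25.4 in ovary, 4.1 in intestine and 3.3 in carcass, and TopBP1, which helps load GINS (PgR030_g033), had 25.5 in testis, 14.4 in embryo, 12.9 in ovary, 2.3 in intestine and 1.5 in carcass. TopBP1 was highest in testis, where only 2 of the 63 genes were, and MCM10 was nearly level in testis and ovary. The other 4 genes of the list were highest in ovary. Of the 6, 1 was called lower in testis than in ovary (16.7%, against 15.9% of all genes) and 0 higher. Of 11 cyclins and cyclin-dependent kinases, 10 were called higher in embryo (90.9%) and 7 in ovary (63.6%) than in both somatic tissues, and 4 of the 11 are marked as eliminated. Those 4 are all among the 10 and among the 7. For them, lost DNA and lower expression in intestine and carcass cannot be told apart. Of the 11, 7 are cyclins A or B, known mainly from mitosis, and 5 of these 7 are annotated as mitotic, so the list is not one of S phase alone. The other 4 are cyclin-D1, cyclin-E and cyclin-dependent kinases 1 and 2. Cyclin-B (PgB05_g006), known for driving mitosis, had 30.9 RPKM in testis, 140.6 in embryo, 67.1 in ovary, 23.6 in intestine and 5.5 in carcass. Cyclin-A (PgR171_g003), annotated as G2/mitotic-specific, had 25.6 RPKM in testis, 93.6 in embryo, 113.2 in ovary, 18.6 in intestine and 3.0 in carcass.

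Of 7 checkpoint genes 3 were called lower in testis than in ovary (42.9%), and 2 higher in embryo (28.6%) and 3 in ovary (42.9%) than in both somatic tissues. The checkpoint kinase chk-1 (PgB05_g122) had 8.7 RPKM in testis, 32.5 in embryo, 65.1 in ovary, 4.8 in intestine and 2.1 in carcass, and chk-2 (PgR012_g087) had 10.7 in testis, 24.0 in embryo, 58.6 in ovary, 8.0 in intestine and 3.5 in carcass. Both kinases were past the threshold between testis and ovary. Of 11 genes for nucleotide supply, 4 were called lower in testis than in ovary (36.4%). Called higher than in both somatic tissues were 2 in embryo (18.2%, against 12.4% of all genes) and 3 in ovary (27.3%, against 16.0%). Few genes are behind each of these shares, and not all of the 11 reached 5 RPKM. The enzyme dUTPase, which keeps uracil out of DNA (PgR037_g079), had 54.9 RPKM in testis, 106.5 in embryo, 224.0 in ovary, 16.4 in intestine and 6.7 in carcass. Thymidylate kinase (PgR001X_g144) had 19.4 RPKM in testis, 21.3 in embryo, 89.3 in ovary, 9.0 in intestine and 4.5 in carcass. Of 18 genes for strand maturation, 2 were called higher and 2 lower in testis than in ovary (11.1% each, against 11.6% and 15.9% of all genes). The 2 higher in testis are topoisomerase 2 PgR027_g033 and ribonuclease H PgR008_g004, with 101.9 and 35.8 RPKM there and 0 in ovary. Called higher than in both somatic tissues were 2 in embryo (11.1%, against 12.4% of all genes) and 5 in ovary (27.8%, against 16.0%). In embryo 2 were called lower than in ovary (11.1%, against 4.45%). The shares for testis against ovary, and for embryo against the somatic tissues, are near or below those of all genes. The list's gene of highest mean level, DNA topoisomerase 1 (PgR084X_g017), which releases the twist ahead of the fork, was highest in intestine. It had 21.5 RPKM in testis, 23.3 in embryo, 20.7 in ovary, 57.7 in intestine and 24.5 in carcass. Ribonuclease H1, which removes RNA paired with DNA (PgR019_g092), was highest in ovary, with 10.4 RPKM in testis, 34.0 in embryo, 72.4 in ovary, 7.4 in intestine and 8.4 in carcass.

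Histones were read on 27 genes: core histones, whose supply is tied to DNA synthesis, and variants, namely H3.3 (PgB21_g027 and PgB21_g028) and the centromeric H3 PgR011_g019. Some models overlap on opposite strands, such as PgR052_g010 and PgR052_g011, so the 27 are not all separate loci. Of the 27, 13 were called lower (48.1%) and 1 higher (3.7%) in testis than in ovary. In embryo 17, and in ovary 17, were called higher than in both somatic tissues (63% each). The H2B gene PgR052_g010 had 320.5 RPKM in testis, 13122.9 in embryo, 12719.1 in ovary, 154.3 in intestine and 36.7 in carcass. PgR042_g095, also named H2B, had 165.4 in testis, 9535.4 in embryo, 7920.5 in ovary, 94.0 in intestine and 24.3 in carcass. Copies of a histone can share reads, so the value of 1 copy is uncertain. Of 13 chromatin assembly genes, 5 were called higher in embryo and 5 in ovary than in both somatic tissues (38.5% each), and 0 were called lower in testis than in ovary. The SSRP1 genes PgB32_g013 and PgB37_g007, 2 of the 13, are marked as eliminated and are among those called in both. For them, lost DNA and lower expression in intestine and carcass cannot be told apart. Nucleosome assembly protein 1 (PgR016_g142) had 321.6 RPKM in testis, 125.1 in embryo, 280.0 in ovary, 79.8 in intestine and 116.7 in carcass. SSRP1 (PgR014X_g021), a subunit of the histone chaperone FACT, had 59.5 RPKM in testis, 175.6 in embryo, 158.3 in ovary, 54.7 in intestine and 18.3 in carcass.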

How the data were processed

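RNA was extracted with Trizol, depleted of rRNA with a kit made for human, mouse and rat, and made into TotalScript libraries, per the labels' protocols. The authors deposited 1 table of 40487 transcripts on 884 scaffolds with RPKM to 1 decimal for each of 5 tissues; the unit was read from the values, which rise in whole reads per length. The submitters' processing notes name TopHat2 and Cufflinks, with no version. Not given in the sources used here are genome build, strandedness and how reads with several matching places were counted. Values lay on such steps for 98.9 to 100% of the short transcripts used to recover the depth, where rounding alone would place 49.3% (embryo) to 80.9% (testis) on them.

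Each gene was represented by its transcript with the highest mean RPKM. Differences used a pseudocount of 1, a threshold of 2 on the log2 scale and a minimum of 5 RPKM, and with 1 library per tissue no p-value was computed. For several tissues the lower of the first was set against the higher of the second. Given in full are, in each role, the 4 genes with the highest mean RPKM and those past the threshold between both gonads and both somatic tissues or between intestine and carcass; further members were named after their values were seen. Each accompanying list is shown by its 2 genes of highest mean. The members and lists were chosen with earlier results of these data known. The steps were tested on simulated data. Computation used Python 3.11.15, numpy 2.4.6, pandas 2.3.3, scipy 1.17.1 and matplotlib 3.10.9.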

Additional observations from a re-analysis of the deposited data

How the results depend on the processing

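Counts below are genes called, in the comparisons testis against ovary, embryo against ovary, both gonads against soma, embryo against soma, intestine against carcass, testis against soma and ovary against soma, where soma is both adult somatic tissues. In brackets stand the share of the replication genes called and then that of all genes called. In 0 cases did a median of the 63 genes change sign. A pseudocount of 0.1 gave 2 genes higher in embryo than in ovary (3.17%, 6.18%), 6 higher in the gonads (9.52%, 4.15%) and 7 higher in testis than in soma (11.1%, 15.2%). A pseudocount of 5 gave 7 lower in testis (11.1%, 7.53%) and 1 lower in embryo (1.59%, 2.02%) than in ovary. Against soma it gave 0 higher in the gonads (0%, 0.925%), 15 in embryo (23.8%, 4.74%), 0 in testis (0%, 9.55%) and 20 in ovary (31.7%, 7.87%). It gave 0 higher in intestine than in carcass (0%, 1.65%). The medians were -1.09 for testis against ovary, 0.45 for gonads, 1.17 for embryo and 1.46 for ovary against soma. With no minimum 4 were lower in embryo than in ovary (6.35%, 4.98%). A minimum of 20 RPKM gave 1 for gonads (1.59%, 1.24%), 16 for embryo (25.4%, 5.97%), 2 for testis (3.17%, 9.78%) and 24 for ovary (38.1%, 10.7%) against soma. It gave 1 for intestine (1.59%, 3.1%). At 2-fold, 45 were lower in testis than in ovary (71.4%, 34.7%) and 1 higher (1.59%, below the share of all genes). In embryo 3 were higher (4.76%, 9.54%) and 10 lower (15.9%, 16.9%) than in ovary. Higher than in soma were 21 in gonads (33.3%, 7.51%), 46 in embryo (73.0%, 25.3%) and 21 in testis (33.3%, 19.6%). In intestine 16 were higher than in carcass (25.4%, 18.9%). At 8-fold these were 2 lower in testis (3.17%, 5.94%) and 0 lower in embryo (0%, 1.66%) than in ovary. Against soma they were 0 for gonads (0%, 1.14%), 9 for embryo (14.3%, 5.65%), 0 for testis (0%, 10.6%) and 15 for ovary (23.8%, 7.34%), with 1 for intestine (1.59%, 0.279%).

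Median-of-ratios scaling gave 1 higher (1.59%, 14.4%) and 2 lower (3.17%, 5.58%) in testis than in ovary. It gave 1 higher (1.59%, 4.5%) and 0 lower (0%, 2.46%) in embryo than in ovary. Against soma it gave 12 for embryo (19.0%, 6.23%) and 13 for ovary (20.6%, 6.12%), and 2 for intestine (3.17%, 1.48%). The medians were -0.50 for testis against ovary, -0.15 for embryo against ovary, 1.07 for embryo and 1.18 for ovary against soma, and 29 genes were highest in ovary. Upper-quartile scaling gave 5 lower in testis (7.94%, 7.57%), and 1 higher (1.59%, 4.86%) and 0 lower (0%, 2.55%) in embryo, than in ovary. Against soma it gave 13 for embryo (20.6%, 7.02%), 2 for testis (3.17%, 13.0%) and 14 for ovary (22.2%, 6.71%), and 2 for intestine (3.17%, 2.70%). Its medians were -0.86 for testis and -0.14 for embryo against ovary. Against soma they were 0.37 for gonads, 1.11 for embryo, 0.44 for testis and 1.21 for ovary. TPM gave 5 lower in embryo than in ovary (7.94%, 7.08%) and 6 higher in gonads (9.52%, 4.3%), with medians of -0.72 for embryo against ovary, 1.35 for embryo against soma and 1.23 for intestine. Without the 20 highest genes 2 were higher (3.17%, 8.57%) and 1 lower (1.59%, 3.28%) in embryo than in ovary, with a median of -0.07. In that setting 2 were higher in testis than in soma (3.17%, 14.4%). Without the rDNA-related genes 2 were higher (3.17%, 7.81%) and 0 lower (0%, 2.94%) in embryo than in ovary, with a median of -0.02. Summing transcripts gave 6 for gonads (9.52%, 4.48%) and 7 for testis (11.1%, 15.7%) against soma. With 1 gene per name, chosen after seeing the data, 43 genes were left, and 29 of them were highest in ovary. Of the 43, 10 were lower in testis (23.3%, 15.9%) and 1 lower in embryo (2.33%, 4.45%) than in ovary. Against soma 1 was higher in gonads (2.33%, 3.36%), 17 in embryo (39.5%, 12.4%), 2 in testis (4.65%, 14.3%) and 24 in ovary (55.8%, 16.0%). The cause of these shifts was not tested.

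No paired analysis was possible because each tissue has 1 library, and leaving out a library was not run as it removes the tissue. Levels near 0.1 RPKM rest on few reads and on the rounding to 1 decimal.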

Other observations

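A further 3 genes match the naming rule only on a transcript other than the highest and are not among the 63. PgB10_g068, annotated on that transcript as a replication factor C complex, had 7.6 RPKM in testis, 5.7 in embryo, 8.9 in ovary, 0.8 in intestine and 0.1 in carcass. The other 2 are annotated as RNA-directed DNA polymerases of mobile elements: PgR030_g014 had 2.2 RPKM in testis, 6.4 in embryo, 27.2 in ovary, 1.5 in intestine and 5.1 in carcass, and PgR027_g130 had 0.9 in testis, 10.2 in embryo and 16.5 in ovary, and a lower level in soma, 0.4 in intestine and 0 in carcass.

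Some replication genes lie close to unrelated genes of the same strand with another pattern. RFC subunit 2 PgR067_g003 lies 51 bases from PgR067_g005, annotated as 4-hydroxybenzoate, which had 6.8 RPKM in testis, 17.7 in embryo, 11.3 in ovary, 14.4 in intestine and 239.1 in carcass. PSF2 PgR004_g228 lies 181 bases from the hypothetical PgR004_g229, which had 22.1 RPKM in testis, 45.3 in embryo, 13.6 in ovary, 424.3 in intestine and 92.0 in carcass. The replication gene was highest in ovary in both cases.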
